A study of Arabidopsis thaliana with 24 samples.

Results

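The salicylic acid pathway and the pathogenesis-related (PR) genes that report on it were followed across a set of Arabidopsis thaliana chromatin mutants. The 10 genes were taken by locus: ICS1 for synthesis, SARD1 and CBP60g for control of synthesis, EDS1 and PAD4 for immune signalling, NPR1 as receptor, WRKY70 as a downstream transcription factor, and PR1, PR2 and PR5 as outputs. They were 10 of 33681 genes in the table, and all 10 were among the 21596 genes tested. Salicylic acid is a plant hormone made from chorismate in the chloroplast, and it rises when a plant detects biotrophic pathogens. The lipase-like proteins EDS1 and PAD4 relay signals from intracellular immune receptors and amplify salicylic acid accumulation. Salicylic acid is bound by NPR1, which acts with TGA transcription factors on defence genes, and the PR proteins secreted at the end of the pathway serve as its standard markers in leaves.

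RNA-seq was carried out on whole seedlings of the Col-0 accession, 14 days old and grown in short days, in 8 genotypes with 3 libraries each. These were the WT, the T-DNA mutants bcl7a and bcl7b, the bcl7a bcl7b double mutant, the BRM mutants brm-3, a hypomorphic allele, and brm-1, a null allele, and 2 triple mutants that join bcl7a bcl7b to either BRM allele, named below the brm-3 triple mutant (brm-3 bcl7a bcl7b) and the brm-1 triple mutant (brm-1 bcl7a bcl7b). All 8 share the Col-0 background, and bcl7a and bcl7b are the alleles bcl7a-1 and bcl7b-1, 1 insertion line each. BRM is the ATPase of a plant SWI/SNF chromatin remodelling complex, and BCL7A and BCL7B are accessory subunits of it. The study also places BCL7A and BCL7B in the SWI/SNF complexes built on other ATPases, SYD, MINU1 and MINU2. The design thus asks what loss of these accessory subunits does with BRM intact, weakened or absent. The labels name no pathogen, hormone or other treatment in any group.

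The values were normalized read counts. They summed to between 29857761 and 40937084 in the 9 WT, bcl7a and bcl7b libraries and to between 16553172 and 22099394 in the other 15, so that this difference cannot be told apart from genotype in any comparison that crosses the 2 sets. Comparisons of the triple mutants with brm-3, brm-1 or bcl7a bcl7b, and of brm-1 with brm-3, stayed within the set of 15. The value of 1 sequenced fragment, read from the steps between low values, lay between 0.64 and 2.13, so values below about 10 rested on few fragments. WT replicate 1 listed 16191 genes at 0, against 13250 and 13368 in the other WT libraries. Replicates 1 and 3 of bcl7a bcl7b differed by less than the sampling noise (mean squared difference 0.137 of the counting variance, against 11.7 to 120 in the other pairs) and were counted as 1 sample, leaving n = 2 in that group and n = 3 elsewhere. BCL7B was listed at 0 in every library that carries bcl7b except brm-3 triple mutant replicate 3, which held 23.97. BRM stood at 17.9 to 44.8 in the 6 libraries of brm-1 and the brm-1 triple mutant against 111 to 349 in the WT. BCL7A was low even in the WT, at 0, 18.1 and 30.1. Of the markers of plant parts, all 4 leaf genes were above 0 in every library, and all 4 root genes in every group but bcl7a, where 3 were. Leaf marker sums were lower in the 15 libraries, at 326200 to 1278000 against 3091000 to 5024000 in the other 9. Such a sum follows its most abundant genes. Gene by gene, the median log2 change of the 4 against the WT was -0.55 in bcl7a bcl7b, -1.11 in brm-3 and -1.04 in brm-1. It was -1.61 in the brm-3 triple mutant and -0.83 in the brm-1 triple mutant. By the threshold given below, 0 of 4 were lower in bcl7a bcl7b and 4 of 4 in the brm-3 triple mutant, beside 10.2% and 22.8% of all genes. Fewer cells of a type and less RNA per cell cannot be told apart in such whole-seedling samples.

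PR2, a beta-1,3-glucanase, and PR5, a thaumatin-like protein, were highest in the brm-1 triple mutant, where the group means reached 853 ± 353 and 1008 ± 219 normalized read counts (SD, n = 3), against 8.46 ± 8.92 and 161 ± 65.6 in brm-1 and 2.10 ± 3.63 and 65.9 ± 67.9 in the WT. PR1 was listed at 0 in every WT, bcl7b and brm-3 library and stood above 0 in all 6 libraries with the null brm-1 allele. PAD4 went the other way between these genotypes, at 1249 ± 615 in brm-1 and 129 ± 34.2 in the brm-1 triple mutant. The synthesis gene ICS1 and its activator SARD1 were called in none of the 15 comparisons made, although some settings did call them, as given below.

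**Figure D1:**
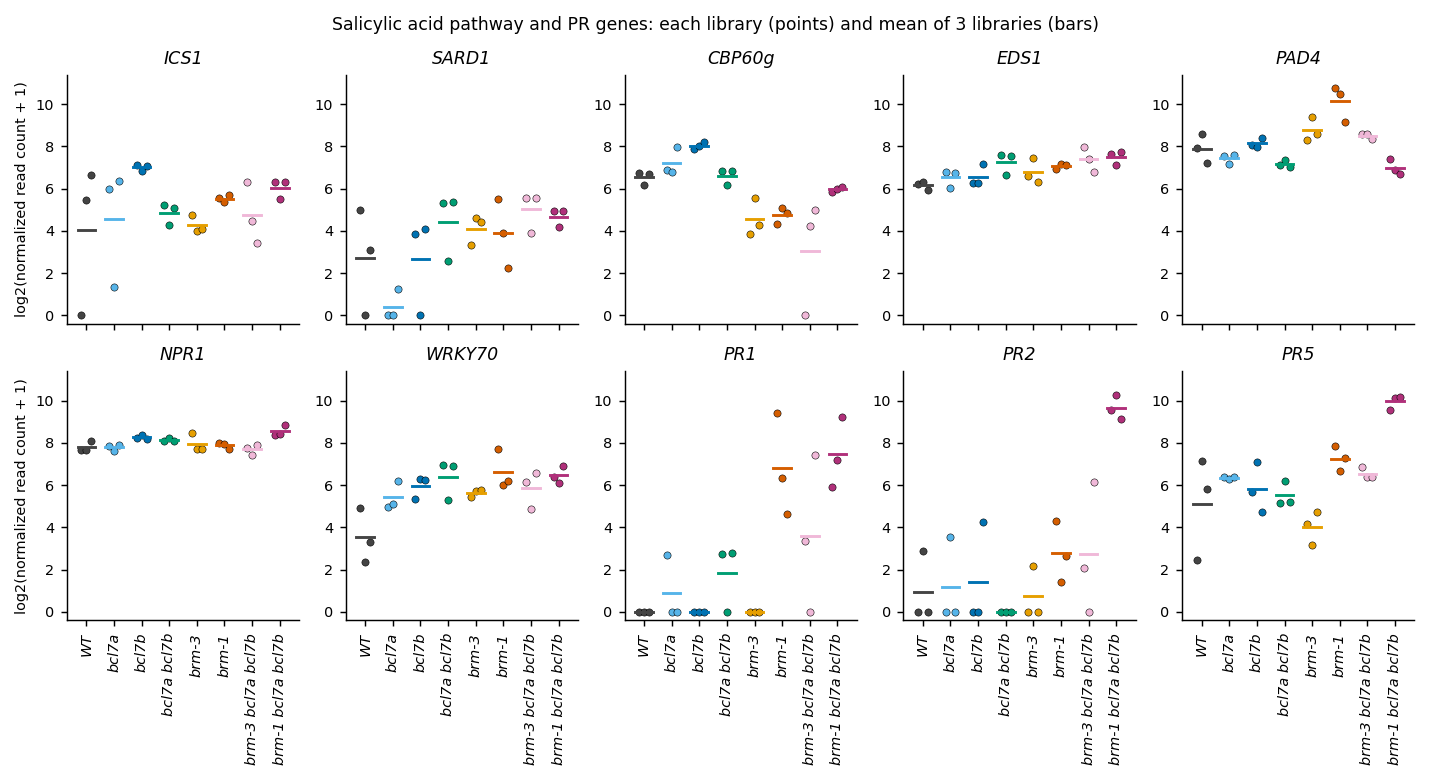
Normalized read counts of the 10 genes on a log2(value + 1) axis, 1 panel per gene; points are the 3 libraries of each genotype and bars their mean on that scale. PR2 and PR5 stand highest in the brm-1 triple mutant, PAD4 in brm-1, and PR1 lies at 0 in all WT, bcl7b and brm-3 libraries.

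A gene was called where the adjusted p of the limma fit over all tested genes was under 0.05 and the fitted log2 fold change on log2(value + 1) exceeded 0.6 either way. Against the WT, none of the 10 genes was called in bcl7a, where 0.352% of all tested genes were (0.301% higher, 0.0509% lower) and 1 of the 10, WRKY70, had an unadjusted p under 0.05. In bcl7b 1 of 10 was called, beside 2.08% of all genes (1.5% higher, 0.574% lower). In the bcl7a bcl7b double mutant it was 1, beside 22.1% (11.9% higher, 10.2% lower), and for brm-3 it was 1, beside 40% (23.5% higher, 16.5% lower). In each case the gene was WRKY70, higher. In the null brm-1, 4 of 10 were higher and none lower, namely PAD4, WRKY70, PR1 and PR5, beside 48.1% of all genes (28.9% higher, 19.2% lower). The brm-3 triple mutant had 3 higher (EDS1, WRKY70 and PR1) and 1 lower (CBP60g), beside 53.5% (30.8% higher, 22.8% lower). The brm-1 triple mutant had 6 higher (EDS1, NPR1, WRKY70, PR1, PR2 and PR5) and 1 lower (PAD4), beside 45.2% (26.9% higher, 18.3% lower). The median fitted log2 change of the 10 genes was 1.66 in brm-1 and 1.99 in the brm-1 triple mutant, beside medians over all tested genes of 0.35 and 0.29. The share of the 10 genes called was below that of all genes in bcl7a bcl7b, brm-3, brm-1 and the brm-3 triple mutant and above it in the brm-1 triple mutant and, by 1 gene, in bcl7b. With every library scaled to the same total, the median gene of the mutants in the set of 15 moved by 1.11 to 1.26 against the WT, and the split became 8 higher and 0 lower in the brm-1 triple mutant and 7 higher and 1 lower in the brm-3 triple mutant. With quantile normalization it became 3 higher and 1 lower in brm-1 and 1 higher and 2 lower in brm-3. Of all 21596 tested genes, the same total called 11686 higher and 1492 lower in the brm-1 triple mutant. In the brm-3 triple mutant it called 12044 and 1991. Quantile normalization called 4803 higher and 4919 lower in brm-1 and 4030 and 3846 in brm-3.

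**Figure D2:**
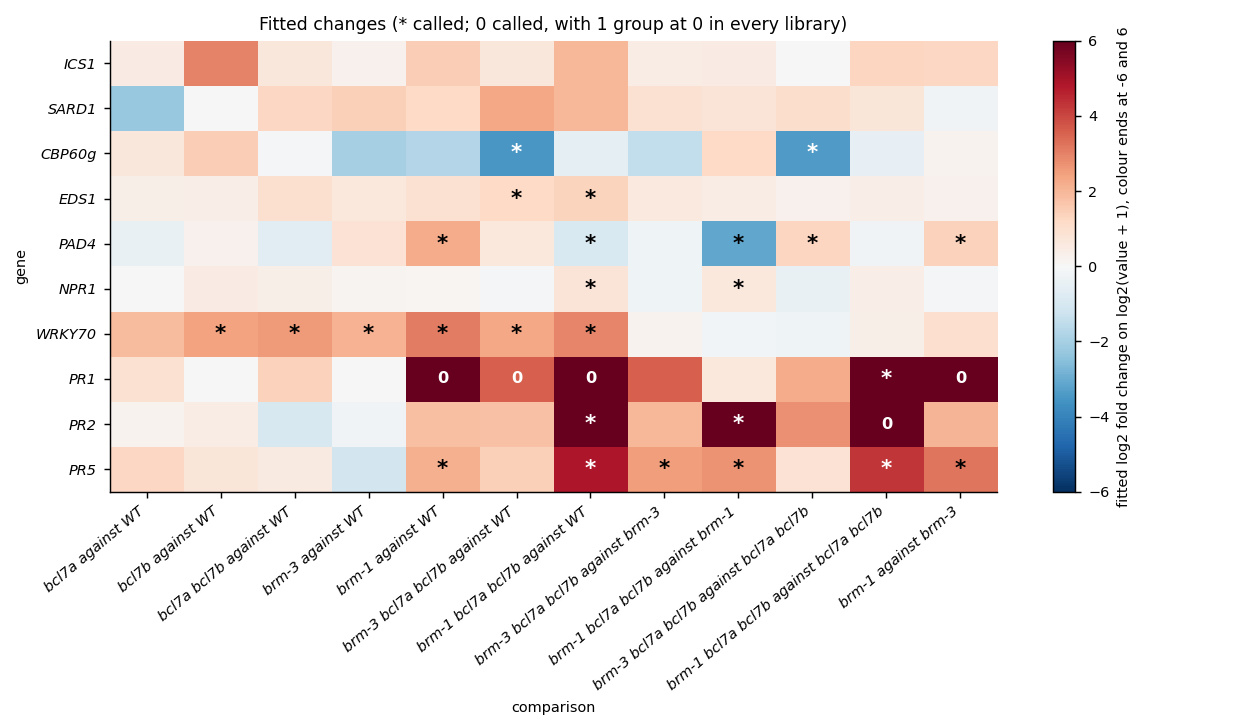
Fitted log2 fold changes of the 10 genes (rows) in 12 pairwise comparisons (columns), red higher and blue lower in the first group named; a star marks a called change and a 0 a called change in which 1 group was listed at 0 in every library. WRKY70 is called higher in 6 of the 7 comparisons with the WT, and in the column that sets the brm-1 triple mutant against brm-1, PAD4 is blue and PR2 the deepest red.

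The bases just upstream of PR2, PR5 and PAD4 are shown because PR2 and PR5 rose and PAD4 fell between brm-1 and the brm-1 triple mutant. Each line holds the 250 bases before the annotated start, from RefSeq's TAIR10.1 assembly, on the strand of the gene. Capitals mark matches, on either strand, to TTGAC, the core of the W-box read by WRKY factors, TGACG, the core read by TGA factors, GAAATTT, bound by CBP60g and SARD1, and ACGCGT, bound by CAMTA factors. The word TTGACG would hold both of the first 2 motifs.
PR2, chr3:21189968-21190217, minus strand: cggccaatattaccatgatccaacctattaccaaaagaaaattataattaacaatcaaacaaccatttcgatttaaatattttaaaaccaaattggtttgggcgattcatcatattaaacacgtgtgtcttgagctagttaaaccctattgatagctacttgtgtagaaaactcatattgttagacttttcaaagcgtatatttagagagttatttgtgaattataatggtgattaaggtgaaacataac
PR5, chr1:28177420-28177669, plus strand: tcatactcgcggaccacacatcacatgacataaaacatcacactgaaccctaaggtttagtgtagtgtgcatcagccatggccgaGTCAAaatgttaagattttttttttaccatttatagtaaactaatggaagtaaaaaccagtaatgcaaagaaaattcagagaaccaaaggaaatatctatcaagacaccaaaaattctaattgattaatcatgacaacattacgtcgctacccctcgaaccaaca
PAD4, chr3:19430845-19431094, plus strand: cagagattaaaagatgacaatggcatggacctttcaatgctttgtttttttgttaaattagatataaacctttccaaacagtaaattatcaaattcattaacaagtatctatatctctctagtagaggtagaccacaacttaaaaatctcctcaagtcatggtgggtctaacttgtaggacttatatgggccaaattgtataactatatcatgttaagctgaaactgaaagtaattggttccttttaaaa
The PR5 window held 1 TTGAC on the other strand, starting 165 bases before the annotated start. The PR2 and PAD4 windows held none of the 4 motifs. Of the 9 windows examined, 4 held TTGAC, as did 44.9% of the windows of 27438 protein-coding genes, and 2 held TGACG (18.6% of all), those of SARD1 and WRKY70. GAAATTT was found in 1 window, that of ICS1 (12.5% of all), and ACGCGT in none (1.67% of all). These matches describe the letters in the windows only.

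At the head of the pathway, ICS1 (AT1G74710, chromosome 1, 28070295 to 28074177) encodes the isochorismate synthase that supplies most pathogen-induced salicylic acid. ICS1 stood at 0, 43.7 and 99.0 normalized read counts in the WT, at 62.0, 1.53 and 80.0 in bcl7a and at 137, 115 and 136 in bcl7b. Its values were 37.0, 18.6 and 32.4 in bcl7a bcl7b, 25.7, 15.0 and 16.0 in brm-3 and 45.8, 40.4 and 50.3 in brm-1. The brm-3 triple mutant held 78.8, 21.2 and 9.70 and the brm-1 triple mutant 78.2, 44.3 and 78.3. The 3 bcl7b libraries were the highest of all and did not overlap with the WT, while WT replicate 1 was at 0. The fitted log2 change in bcl7b was 2.98 (SE 1.23, adjusted p = 0.223, 3 against 3 libraries, limma), and its interval of 2 SE either way ran from 0.51 to 5.45. In the brm-1 triple mutant the change was 0.51 against brm-1 (SE 1.23, adjusted p = 0.806) and 2.0 against the WT (SE 1.23, adjusted p = 0.191). The latter was called with libraries scaled to the same total (2.75, adjusted p = 0.0396) and without WT replicate 3 (3.30, adjusted p = 0.0379). A fit to the compared groups only also called ICS1 higher in brm-1 than in brm-3 (1.26, adjusted p = 0.0359, against 0.642 in the fit to all groups).

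SARD1 (AT1G73805, chromosome 1, 27744790 to 27749248) and CBP60g (AT5G26920, chromosome 5, 9475679 to 9478777) are related calmodulin-binding-protein family transcription factors that bind the ICS1 promoter. SARD1 overlaps the gene AT1G73790 on the opposite strand over 640 bases, and 16.4% of its 31-base words are shared with that gene, so its reads could be split. Normalized read counts of SARD1 were 31.3, 0 and 7.42 in the WT, 0, 0 and 1.41 in bcl7a and 13.6, 0 and 16.2 in bcl7b. For bcl7a bcl7b they were 38.6, 4.88 and 39.9, for brm-3 8.95, 23.1 and 20.4 and for brm-1 44.3, 14.1 and 3.71. They were 46.7, 13.9 and 46.8 in the brm-3 triple mutant and 29.3, 16.9 and 29.9 in the brm-1 triple mutant. Values ran from 0 to 46.8, and the libraries of every mutant overlapped those of the WT. The comparison nearest to a call was that of the brm-3 triple mutant with the WT, at 2.32 on the log2 scale (SE 1.18, adjusted p = 0.0991, limma). It was called with the same total (3.08, adjusted p = 0.0181) and without WT replicate 1 (3.48, adjusted p = 0.0183). The change in the brm-1 triple mutant against the WT, 1.98 (adjusted p = 0.173), was called in the same 2 settings (2.64 and 3.14, adjusted p = 0.0422 and 0.0375).

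The WT libraries held 107, 70.6 and 103 normalized read counts of CBP60g, the bcl7a libraries 116, 109.8 and 248 and the bcl7b libraries 233, 256 and 298. Those of bcl7a bcl7b held 112, 70.3 and 112, those of brm-3 13.3, 46.8 and 18.5 and those of brm-1 19.3, 33.1 and 28.1. The triple mutants held 0, 17.9 and 30.3 with brm-3 and 56.2, 62.7 and 67.4 with brm-1. CBP60g was higher in every bcl7a and bcl7b library, and lower in every library of brm-3, brm-1 and both triple mutants, than in any WT library. In the brm-3 triple mutant it fell by 3.47 on the log2 scale against the WT (SE 0.795, adjusted p = 0.000811, limma, 3 against 3) and fell by 3.42 against bcl7a bcl7b (SE 0.888, adjusted p = 0.00543, 3 against 2). The log2 changes against the WT were -1.97 in brm-3 (adjusted p = 0.0505) and -1.77 in brm-1 (adjusted p = 0.0681), just outside the threshold, and 1.49 in bcl7b (adjusted p = 0.353). In the brm-1 triple mutant it stood at 56.2 to 67.4, above brm-1 in every library, with a fitted log2 change of 1.21 that was not called (SE 0.795, adjusted p = 0.271). In a fit to the compared groups only, both falls of the brm-3 triple mutant missed the threshold (adjusted p = 0.075 and 0.165), whereas the falls in brm-3 (0.0465) and brm-1 (0.0191) against the WT and the rise from brm-1 to the brm-1 triple mutant (0.019) passed it. The brm-3 change was called in 7 of 15 alternatives, among them a replicate block (adjusted p = 0.0408) and quantile normalization (-2.33, adjusted p = 0.00932), and the brm-1 change in 3 of 15. CBP60g was called lower in the brm-3 triple mutant than in brm-3 in 1 of 15 alternatives. This was the fit without brm-3 triple mutant replicate 3 (-2.45, adjusted p = 0.034, against -1.50 and 0.191 with it). Replicate 1 of that group was listed at 0, and replicates 2 and 3 lay within the brm-3 range. Over the alternatives, the change in the brm-3 triple mutant ran from -4.6 to -1.93 against the WT. Against bcl7a bcl7b it ran from -4.55 to -1.88.

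EDS1 (AT3G48090, chromosome 3, 17755329 to 17758147) encodes the lipase-like protein that pairs with PAD4 or SAG101. Its neighbouring copy EDS1B shares 3.61% of the 31-base words of EDS1, so reads of the pair can be divided between them. EDS1 stood at 73.9, 79.0 and 61.0 normalized read counts in the WT, at 111, 65.5 and 107 in bcl7a and at 75.2, 75.6 and 141 in bcl7b. Its values were 189.9, 100.3 and 187 in bcl7a bcl7b, 96.8, 174 and 77.6 in brm-3 and 122, 143 and 136 in brm-1. The brm-3 triple mutant held 254, 166 and 108 and the brm-1 triple mutant 202, 137 and 209. Every library of bcl7a bcl7b, brm-1 and both triple mutants was above the highest WT library. EDS1 rose against the WT in the brm-3 triple mutant by 1.21 on the log2 scale (SE 0.381, adjusted p = 0.00977, limma) and in the brm-1 triple mutant by 1.33 (SE 0.381, adjusted p = 0.0065). The log2 change was 0.90 in brm-1 (adjusted p = 0.0537) and 0.95 in bcl7a bcl7b (adjusted p = 0.115). The brm-1 change was called in 4 of 15 alternatives, namely a fit to the compared groups only (adjusted p = 0.048), a minimum mean of 50 (0.0418), all 24 libraries (0.0477) and the same total (1.73, 0.000566). That in bcl7a bcl7b was called in 2 of 15, with all 24 libraries (1.10, adjusted p = 0.028) and with the same total (1.90, 0.00111), which also called EDS1 in brm-3 (1.51, 0.00223, against 0.62 and 0.201). Without brm-3 triple mutant replicate 1 the rise in the brm-3 triple mutant was 0.91 (adjusted p = 0.0702), and in a fit to the compared groups only its adjusted p was 0.0574. EDS1B itself was listed at 0 in all 3 libraries of the brm-3 triple mutant and at 13.3 to 46.1 in the WT, and with the copies summed, a setting chosen after seeing the data, the log2 change in the brm-3 triple mutant was 0.72 (adjusted p = 0.0962), while that in the brm-1 triple mutant was 0.92 (adjusted p = 0.0413).

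PAD4 (AT3G52430, chromosome 3, 19431095 to 19434450) encodes the partner of EDS1 that promotes salicylic acid accumulation. Normalized read counts of PAD4 were 239.6, 379 and 146 in the WT, 189, 142 and 194 in bcl7a and 267, 248 and 334 in bcl7b. For bcl7a bcl7b they were 136, 163 and 131, for brm-3 317, 673 and 378 and for brm-1 1756, 1425 and 565. They were 379, 386 and 327 in the brm-3 triple mutant and 167, 119 and 101 in the brm-1 triple mutant. The 3 brm-1 libraries were above every WT library, and the 3 libraries of the brm-1 triple mutant were far below every brm-1 library. By group mean the order ran brm-1, brm-3, the brm-3 triple mutant, bcl7b, WT, bcl7a, bcl7a bcl7b and the brm-1 triple mutant, and the ranges of each pair of neighbours in that order overlapped. PAD4 rose in brm-1 against the WT by 2.24 on the log2 scale, 4.72-fold (SE 0.363, adjusted p = 2.51e-05, limma, 3 against 3). It fell in the brm-1 triple mutant against brm-1 by 3.14 (SE 0.363, adjusted p = 9.67e-07), an 8.84-fold difference lower in 3 of 3 libraries. Both calls held without any single library and under every other setting tried. Against the WT, the brm-1 triple mutant was lower by a fitted log2 change of -0.90 (SE 0.363, adjusted p = 0.0451), although the groups overlapped. This last call was lost without WT replicate 1 (adjusted p = 0.0796), WT replicate 2 (0.233), brm-1 triple mutant replicate 2 (0.102) or replicate 3 (0.151), at a pseudocount of 0.1 (0.0509), with no filter (0.0562) and in a fit to the compared groups (0.123), and with libraries scaled to the same total the value was 0.01 (0.976).

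In brm-3 against the WT the change in PAD4 was 0.87 (SE 0.363, adjusted p = 0.0602). It was called with a replicate block (adjusted p = 0.0475), with the same total (1.76, adjusted p = 0.000173), without WT replicate 2 (1.20, adjusted p = 0.0149) and without brm-3 replicate 1 (1.09, adjusted p = 0.0415). In the brm-3 triple mutant against the WT it was 0.61 (adjusted p = 0.157), called with the same total (1.63, adjusted p = 0.000279) and without WT replicate 2 (0.95, adjusted p = 0.0397). The change in PAD4 with bcl7a bcl7b was -3.14 in brm-1 but was not called in the WT or in brm-3, as the plot of bcl7a bcl7b in the 3 backgrounds shows. The change in brm-1 minus that in the WT, an interaction, was -2.46 on the log2 scale (adjusted p = 0.00146, limma). PAD4 was also higher in the brm-3 triple mutant than in bcl7a bcl7b, by 1.29 (SE 0.406, adjusted p = 0.0189, 3 against 2), a call lost without bcl7a bcl7b replicate 2 (1.44, adjusted p = 0.0522). It was higher in brm-1 than in brm-3 by 1.37 (SE 0.363, adjusted p = 0.0165), though 1 brm-1 library lay within the brm-3 range. That call was lost without brm-3 replicate 1 (adjusted p = 0.0983), brm-3 replicate 3 (0.0715), brm-1 replicate 1 (0.127) or brm-1 replicate 2 (0.0958), and in a fit to the compared groups (0.0705).

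NPR1 (AT1G64280, chromosome 1, 23852748 to 23855658) encodes a salicylic acid receptor and coactivator that is regulated largely at the protein level. A long non-coding RNA overlaps it on the opposite strand over 214 bases and shares 7.12% of its 31-base words. The WT libraries held 199.7, 199 and 269 normalized read counts of NPR1, the bcl7a libraries 231, 193 and 236 and the bcl7b libraries 303, 328 and 287. Those of bcl7a bcl7b held 272, 296 and 268, those of brm-3 349, 209.7 and 205 and those of brm-1 255, 248 and 209. The triple mutants held 213, 172 and 235 with brm-3 and 326, 343 and 454 with brm-1. NPR1 varied least of the 10 genes between genotype means, and the brm-1 triple mutant libraries were above every WT, brm-1 and bcl7a bcl7b library. The 3 bcl7b libraries were also above the WT, but the change was not called (log2 0.47, SE 0.227, adjusted p = 0.3). It rose in the brm-1 triple mutant against the WT by 0.75 on the log2 scale (SE 0.227, adjusted p = 0.0097, limma), and 0.60 without brm-1 triple mutant replicate 3 (adjusted p = 0.0635). Against brm-1 the rise was 0.65 (SE 0.227, adjusted p = 0.0334), and this call was lost without any one of brm-1 replicates 1, 2 and 3 (adjusted p = 0.0554, 0.065 and 0.117) or brm-1 triple mutant replicates 2 and 3 (0.052 and 0.164). With the same total, NPR1 was called higher than in the WT in bcl7a bcl7b, brm-3, brm-1 and the brm-3 triple mutant too, by 0.91 to 1.32, beside the shift of 1.11 to 1.26 in the median gene, and its change in the brm-3 triple mutant turned from -0.11 to 0.91.

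WRKY70 (AT3G56400, chromosome 3, 20908711 to 20910623) encodes a transcription factor that is induced by salicylic acid and represses jasmonate responses. WRKY70 stood at 29.6, 4.18 and 8.85 normalized read counts in the WT, at 30.3, 33.5 and 71.5 in bcl7a and at 38.9, 76.4 and 75.7 in bcl7b. Its values were 122, 38.1 and 119.9 in bcl7a bcl7b, 41.9, 51.3 and 52.6 in brm-3 and 207, 62.7 and 72.3 in brm-1. The brm-3 triple mutant held 70.0, 27.7 and 93.8 and the brm-1 triple mutant 81.4, 67.5 and 119. The 3 WT libraries were the lowest group, and in all mutants but the brm-3 triple mutant every library exceeded the highest WT library. Against the WT, WRKY70 rose by 2.42 on the log2 scale in bcl7b (SE 0.639, adjusted p = 0.0489, limma), by 2.57 in bcl7a bcl7b (SE 0.715, adjusted p = 0.0124) and by 2.09 in brm-3 (SE 0.639, adjusted p = 0.0118). It rose by 3.09 in brm-1 (adjusted p = 0.000363), by 2.32 in the brm-3 triple mutant (adjusted p = 0.00393) and by 2.92 in the brm-1 triple mutant (adjusted p = 0.000686). In bcl7a the log2 change was 1.88 and was not called (SE 0.639, adjusted p = 0.232). The 7 comparisons share the same 3 WT libraries, in which WRKY70 rested on 4.18 to 29.6 normalized read counts. The bcl7b call was lost without WT replicate 2 (adjusted p = 0.114), WT replicate 3 (0.0644) or bcl7b replicate 1, 2 or 3 (0.055, 0.152 and 0.176), and the brm-3 call without WT replicate 2 (0.0711). In fits to the compared groups only, the calls in bcl7b (0.385), bcl7a bcl7b (0.259), brm-3 (0.0819) and the brm-3 triple mutant (0.0832) were lost. Among the mutants WRKY70 was called in none of the 5 direct comparisons (all adjusted p over 0.05), and its change with bcl7a bcl7b in brm-1, minus that in the WT, was -2.75 (adjusted p = 0.0324, limma). That interaction was lost without WT replicate 2 (adjusted p = 0.0791), WT replicate 3 (0.0521), brm-1 replicate 1 (0.101) or brm-1 triple mutant replicate 1 or 2 (0.0549 and 0.0685), with quantile normalization (0.0816) and in a fit to the compared groups (0.0783).

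Of the outputs, PR1 (AT2G14610, chromosome 2, 6241640 to 6242541) encodes a small secreted protein used as the standard marker of salicylic acid responses, and its transcript shared no 31-base word with another gene. Normalized read counts of PR1 were 0 in all 3 libraries in the WT, 5.52, 0 and 0 in bcl7a and 0 in all 3 libraries in bcl7b. For bcl7a bcl7b they were 5.65, 0 and 5.83, for brm-3 0 in all 3 libraries and for brm-1 689, 80.8 and 23.5. They were 9.37, 0 and 168 in the brm-3 triple mutant and 60.0, 146 and 599 in the brm-1 triple mutant. PR1 was at or near 0 in all 15 libraries of the WT, bcl7a, bcl7b, bcl7a bcl7b and brm-3, and in brm-1 and the brm-1 triple mutant it varied widely within a group. Since it was listed at 0 in the WT, no fold against the WT is given. It was called higher than in the WT in brm-1 (adjusted p = 0.000352, limma, 3 of 3 libraries above 0), in the brm-1 triple mutant (adjusted p = 0.000142, 3 of 3) and in the brm-3 triple mutant (adjusted p = 0.0338, 2 of 3). The last call was lost without WT replicate 1, 2 or 3 (adjusted p = 0.0588, 0.0612 and 0.064), or without brm-3 triple mutant replicate 1 (0.0603) or 3 (0.296), the library in which BCL7B was above 0, and at a pseudocount of 5 (0.0616), a minimum mean of 50 (0.103), quantile normalization (0.19) or a fit to the compared groups (0.141). It was higher in brm-1 than in brm-3 (adjusted p = 0.00248) and higher in the brm-1 triple mutant than in bcl7a bcl7b by 6.08 on the log2 scale (SE 1.56, adjusted p = 0.00604), a call lost without bcl7a bcl7b replicate 2 (adjusted p = 0.114). Between the brm-1 triple mutant and brm-1 the libraries overlapped and PR1 was not called. Between the brm-3 triple mutant and brm-3, which was listed at 0, its adjusted p was 0.0695, and it was called with the same total (0.0473) and without brm-3 triple mutant replicate 2 (0.00629). Without that library it was also called against bcl7a bcl7b (adjusted p = 0.0467, against 0.317 with it).

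PR2 (AT3G57260, chromosome 3, 21188397 to 21189967) encodes a secreted beta-1,3-glucanase, and it too shared no 31-base word with another gene. The WT libraries held 0, 6.28 and 0 normalized read counts of PR2, the bcl7a libraries 0, 10.7 and 0 and the bcl7b libraries 0, 0 and 17.8. Those of bcl7a bcl7b held 0 in all 3 libraries, those of brm-3 0, 3.54 and 0 and those of brm-1 18.6, 1.65 and 5.18. The triple mutants held 3.15, 0 and 68.7 with brm-3 and 749, 1246 and 564 with brm-1. Outside the brm-1 triple mutant the highest library, brm-3 triple mutant replicate 3, held 68.7, and the lowest library of the brm-1 triple mutant held 564. PR2 rose in the brm-1 triple mutant against the WT by 8.70 on the log2 scale (SE 1.4, adjusted p = 2.31e-05, limma, 3 of 3 libraries) and against brm-1 by 6.88 (SE 1.4, adjusted p = 0.000591). It was listed at 0 in all bcl7a bcl7b libraries, and the comparison of the brm-1 triple mutant with them had an adjusted p of 8.1e-05. Each of these calls held without any single library. No other comparison of 2 genotypes called PR2, and its fitted log2 changes against the WT were below 2 in brm-1 and the brm-3 triple mutant.

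PR5 (AT1G75040, chromosome 1, 28177670 to 28179022) encodes a thaumatin-like protein. PR5 stood at 4.41, 139 and 54.5 normalized read counts in the WT, at 81.2, 76.1 and 82.4 in bcl7a and at 49.9, 134 and 25.8 in bcl7b. Its values were 34.4, 72.1 and 35.5 in bcl7a bcl7b, 17.0, 7.94 and 25.6 in brm-3 and 230.0, 99.7 and 152 in brm-1. The brm-3 triple mutant held 115, 83.2 and 82.2 and the brm-1 triple mutant 757, 1112 and 1156. The brm-1 triple mutant libraries were above every other library, and the brm-3 libraries were below every library of the other mutants. By group mean the order ran the brm-1 triple mutant, brm-1, the brm-3 triple mutant, bcl7a, bcl7b, WT, bcl7a bcl7b and brm-3, and neighbours failed to overlap only between the first pair and the last pair. In the brm-1 triple mutant it rose by 4.84 on the log2 scale against the WT (SE 0.768, adjusted p = 2.02e-05, limma), by 2.70 against brm-1 (SE 0.768, adjusted p = 0.0095) and by 4.27 against bcl7a bcl7b (SE 0.858, adjusted p = 0.000767). It rose by 3.23 in brm-1 against brm-3 (SE 0.768, adjusted p = 0.00782), and these 4 calls held without any single library. In the brm-3 triple mutant it rose by 2.52 against brm-3 (SE 0.768, adjusted p = 0.0206), a call lost without brm-3 replicate 2 (adjusted p = 0.0962) or brm-3 triple mutant replicate 1 (0.0683). In brm-1 it rose by 2.14 against the WT (SE 0.768, adjusted p = 0.0246), with overlapping libraries. That value was 0.79 without WT replicate 1 (adjusted p = 0.263), in which PR5 stood at 4.41, and 1.84 and 2.13 without brm-1 replicates 1 and 3 (0.0939 and 0.0534). It also missed the threshold with quantile normalization (0.0886) and in a fit to the compared groups (0.178). In brm-3 PR5 was not called against the WT (-1.10, adjusted p = 0.264), but it was without WT replicate 1 (-2.44, adjusted p = 0.00155) and with quantile normalization (-2.21, adjusted p = 0.00428). In the brm-3 triple mutant the change of 1.43 (adjusted p = 0.12) was called without WT replicate 2 (2.43, adjusted p = 0.0076) and with the same total (2.40, adjusted p = 0.00572).

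**Figure D3:**
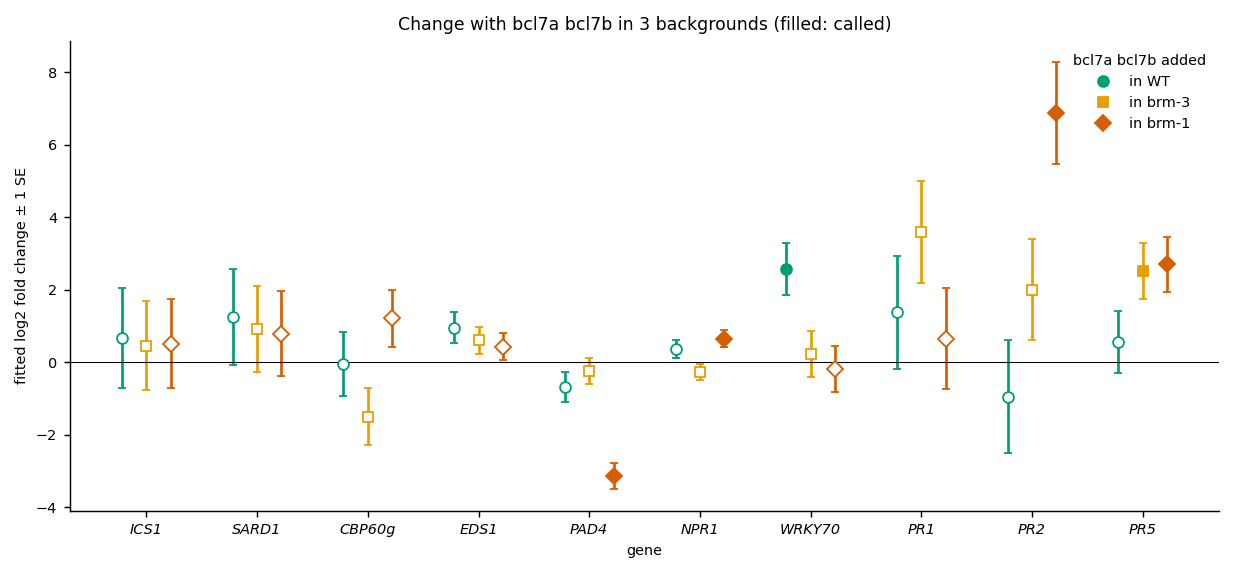
Fitted log2 fold changes ± 1 SE of the 10 genes with bcl7a bcl7b added to the WT (circles), to brm-3 (squares) and to brm-1 (diamonds); filled symbols are called. In brm-1, PAD4 lies at -3.14 and PR2 at 6.88, while in the WT WRKY70 has the only filled circle.

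The effect of bcl7a bcl7b was compared directly across BRM backgrounds. In brm-3 it called 1 of the 10 genes, PR5, higher, beside 21.2% of all tested genes (9.08% higher, 12.1% lower). In brm-1 it called 4 of 10, with NPR1, PR2 and PR5 higher and PAD4 lower, beside 29.5% (14.2% higher, 15.3% lower). Of the interactions, none was called with brm-3 by limma, beside 11.5% of all genes (5.2% higher, 6.29% lower), and 1 of the 10, WRKY70, had an unadjusted p under 0.05. That of WRKY70, -2.34 (adjusted p = 0.116), was called with all 24 libraries (-2.62, adjusted p = 0.045), with the same total (-3.11, adjusted p = 0.0165) and without WT replicate 1 (-3.04, adjusted p = 0.0262). With brm-1, 3 of 10 were called, PR2 higher and PAD4 and WRKY70 lower, beside 31.2% (14.7% higher, 16.5% lower). For PR2 the bcl7a bcl7b group was listed at 0, so no size is given beyond the fitted value on log2(value + 1), 7.84 (adjusted p = 0.00644). PR5 rose in both backgrounds, by 2.52 in brm-3 and 2.70 in brm-1, and its interactions, 1.96 and 2.14, were not called (adjusted p = 0.286 and 0.167), though both were without WT replicate 1 (3.30 and 3.48, adjusted p = 0.00897 and 0.00195) and with quantile normalization (3.01 and 3.12, adjusted p = 0.0229 and 0.00842). Against bcl7a bcl7b, adding brm-3 called 2 genes, PAD4 higher and CBP60g lower, beside 28.9% of all genes (13.8% higher, 15.1% lower). Adding brm-1 called PR1, PR2 and PR5, all 3 higher, beside 23.7% (12.8% higher, 10.9% lower). Between the BRM alleles PAD4, PR1 and PR5, 3 of 10, were called higher in brm-1, beside 9.94% of all genes (5.34% higher, 4.6% lower). The additivity test of bcl7a and bcl7b called none of the 10 with limma, beside 6.01% of all genes (3.03% higher, 2.98% lower), and none of the 10 had an unadjusted p under 0.05 there.

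The wider pathway was followed through 69 genes in 9 lists, of which 67 were tested. Against the WT, 32 were higher and 8 lower in brm-1, 32 and 8 in the brm-3 triple mutant and 31 and 3 in the brm-1 triple mutant, or 59.7%, 59.7% and 50.7%, beside 48.1%, 53.5% and 45.2% of all tested genes. In bcl7a bcl7b 11 were higher and 5 lower (23.9%, beside 22.1% of all genes), and in brm-3 17 and 8 (37.3%, beside 40%), so that both shares were near that of all genes. With bcl7a bcl7b added, 15 rose and 3 fell in brm-3 (26.9%, beside 21.2% of all genes) and 15 rose and 9 fell in brm-1 (35.8%, beside 29.5%). The median log2 change of the 67 genes was 1.13 in brm-1 and 1.45 in the brm-1 triple mutant against the WT, beside 0.35 and 0.29 over all tested genes. Scaled to the same total, the split was 43 higher and 3 lower in brm-1, 46 and 2 in the brm-1 triple mutant and 32 and 1 in bcl7a bcl7b. With quantile normalization it was 20 and 11, 25 and 6, and 4 and 5. Of all 21596 tested genes, the same total called 11164 higher and 1539 lower, 11686 and 1492, and 10850 and 364, in the same order. Quantile normalization called 4803 and 4919, 4557 and 4668, and 1979 and 1806 of them.

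**Figure D4:**
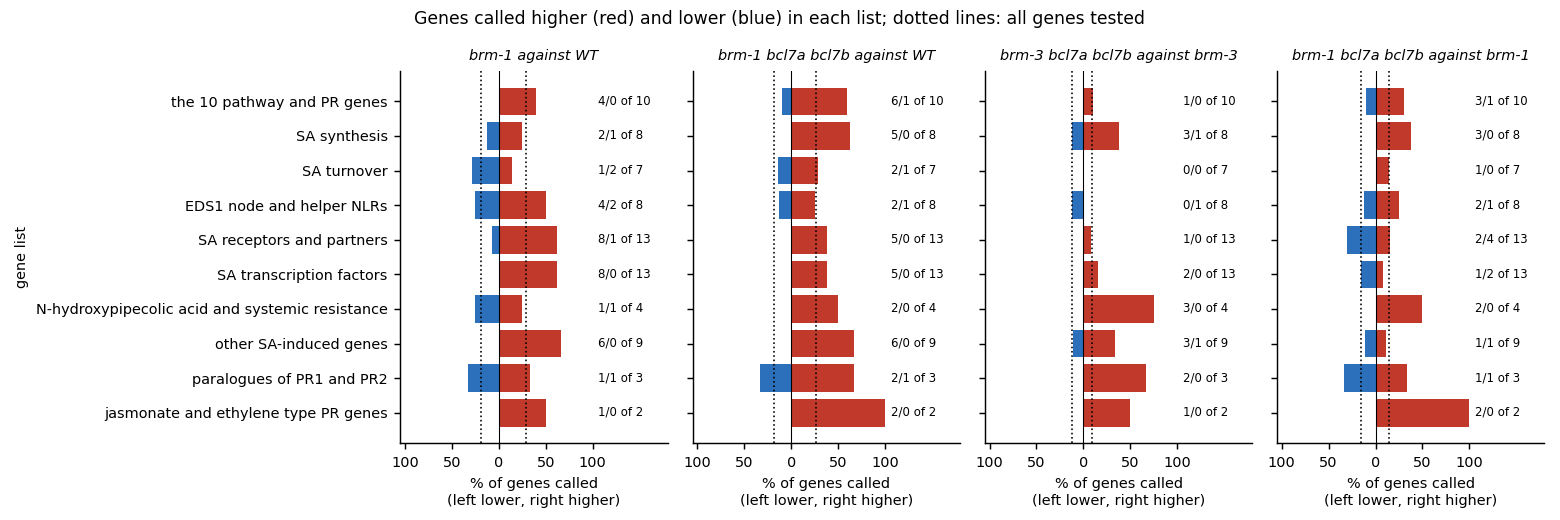
Share of the tested genes of each list called higher (red, right) and lower (blue, left) in 4 comparisons, with the counts higher/lower of the genes tested at the right; dotted lines give the share of all tested genes called in each direction. In brm-1 against the WT, 8 of 13 receptor and partner genes and 8 of 13 transcription factors are higher, and with bcl7a bcl7b added to brm-1, 4 of the 13 receptor and partner genes are lower.

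The counts in each list stand beside the same shares of all tested genes as above. Against the WT these were 28.9% higher and 19.2% lower in brm-1 and 26.9% and 18.3% in the brm-1 triple mutant, and with bcl7a bcl7b added they were 14.2% and 15.3% in brm-1. Of the synthesis genes, 2 of 8 were higher and 1 lower in brm-1, no more than those shares, and 5 of 8 were higher in the brm-1 triple mutant against the WT. PAL1, a phenylalanine ammonia-lyase of the route that bypasses ICS1, held 362, 249 and 357 in the WT, 797, 612 and 699 in brm-1 and 3574, 3844 and 2656 in the brm-1 triple mutant. The groups did not overlap, and PAL1 rose with bcl7a bcl7b in brm-1 by 2.25 on the log2 scale (SE 0.337, adjusted p = 2.23e-05, limma). EPS1, which acts late in the ICS1 route, held 144, 141 and 123 in brm-1 and 432, 493 and 410.1 in the brm-1 triple mutant, a rise of 1.70 (SE 0.467, adjusted p = 0.0073). Of 7 turnover genes, 1 was higher and 2 lower in brm-1 and 2 higher and 1 lower in the brm-1 triple mutant, 3 of 7 in each, near the 48.1% and 45.2% of all genes called. MES9, an esterase that frees salicylic acid from its methyl ester, fell by 2.35 in brm-1 (SE 0.394, adjusted p = 3.82e-05). BSMT1, which makes that ester, was listed at 0 in every brm-1 library and stood at 15.9, 40.1 and 32.5 in the brm-1 triple mutant (adjusted p = 0.000129 between them).

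Among the partners of EDS1 and the helper immune receptors, 4 of 8 were higher and 2 lower in brm-1 against the WT, beside 48.1% of all genes called (28.9% higher, 19.2% lower). When bcl7a bcl7b was added to brm-1, 2 rose and 1 fell, 3 of 8 beside 29.5% of all genes. The helper receptor NRG1A, which works with EDS1 and SAG101, held 230.4, 211 and 209 in brm-1 and 55.2, 46.3 and 31.9 in the brm-1 triple mutant, a fall by 2.29 on the log2 scale (SE 0.407, adjusted p = 0.000149, limma). ADR1, a helper that works with EDS1 and PAD4, held 52.2, 51.1 and 40.7 and 277, 285 and 369.5 in the same groups, a rise of 2.67 (SE 0.533, adjusted p = 0.000513). ADR1-L2, a further helper, rose by 1.44 (SE 0.299, adjusted p = 0.000722, limma). Thus NRG1A fell while ADR1 and ADR1-L2 rose.

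Of 13 receptor and partner genes, 8 were higher and 1 lower in brm-1 against the WT, beside 28.9% and 19.2% of all genes. With bcl7a bcl7b in brm-1, 2 rose and 4 fell, beside 14.2% and 15.3%. NIMIN3, one of the small proteins that bind NPR1 and restrain it, held 31.7, 53.5 and 13.2 in the WT, 591, 751 and 459 in brm-1 and 33.3, 8.09 and 7.30 in the brm-1 triple mutant. It rose in brm-1 by 4.33 on the log2 scale (SE 0.552, adjusted p = 1.09e-06, limma) and fell again by 5.42 with bcl7a bcl7b (SE 0.552, adjusted p = 1.82e-07). NIMIN1 held 27.1, 15.7 and 2.92 in brm-1 and was listed at 0 in all libraries of the WT and the brm-1 triple mutant. NIMIN2 fell by 1.79 with bcl7a bcl7b in brm-1 (SE 0.485, adjusted p = 0.00678), and TGA7, a TGA transcription factor, by 1.53 (SE 0.38, adjusted p = 0.00347). TGA7 had risen in brm-1 against the WT by 3.97 (SE 0.38, adjusted p = 1.82e-08), the smallest adjusted p of its list.

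Of 13 further transcription factors, 8 were higher and none lower in brm-1, where 28.9% of all tested genes were called higher and 19.2% lower, and 5 were higher in the brm-1 triple mutant, beside 26.9%. WRKY18, an immune-response WRKY factor, held 41.4, 14.2 and 15.3 in the WT, 34.4, 48.6 and 28.4 in brm-3, 503, 319 and 371 in the brm-3 triple mutant and 455, 364 and 303 in the brm-1 triple mutant. It rose with bcl7a bcl7b in brm-3 by 3.39 on the log2 scale (SE 0.507, adjusted p = 4.13e-05, limma), and all libraries of the brm-3 triple mutant lay above those of brm-3. Against the WT, WRKY18 was already higher in brm-1 by 3.17 (SE 0.507, adjusted p = 2.07e-05). In the brm-1 triple mutant it was higher by 4.08 (SE 0.507, adjusted p = 7.93e-07). It was not called between the brm-1 triple mutant and brm-1. WRKY54, the closest relative of WRKY70, was listed at 0 in the WT, held 44.1, 21.0 and 26.7 in brm-1, and fell by 3.79 in the brm-1 triple mutant against brm-1 (SE 1.07, adjusted p = 0.00895). That fall was lost without brm-1 triple mutant replicate 3 (-3.23, adjusted p = 0.0535) and at a pseudocount of 0.1 (-5.17, adjusted p = 0.0644).

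Of the genes for N-hydroxypipecolic acid and systemic resistance, 4 of 5 were tested, and 3 rose with bcl7a bcl7b in brm-3 and 2 in brm-1, where 9.08% and 14.2% of all genes did. AZI1, a lipid-transfer-like protein of systemic resistance, held 4424, 6480 and 2665 in the WT, 138, 211 and 214 in brm-3 and 2649, 2632 and 2491 in the brm-3 triple mutant. The brm-3 libraries were the lowest, and the rise in the brm-3 triple mutant was 3.81 on the log2 scale (SE 0.421, adjusted p = 1.03e-06, limma). SARD4, an enzyme that makes pipecolic acid, rose by 1.47 in brm-3 (SE 0.37, adjusted p = 0.00562) and by 2.37 in brm-1 (SE 0.37, adjusted p = 3.55e-05).

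Of 9 other salicylic acid-induced genes, 6 were higher and none lower against the WT in each of brm-1, the brm-3 triple mutant and the brm-1 triple mutant. Beside these stand 28.9%, 30.8% and 26.9% of all genes higher and 19.2%, 22.8% and 18.3% lower. The median log2 changes of the 9 were 3.98, 4.54 and 3.64, values that depend on the pseudocount, since 2 of the 9 were listed at 0 in 1 group. PCC1, a small membrane protein, was listed at 0 in all libraries of the WT and the brm-1 triple mutant and held 545, 137 and 47.3 in brm-1 (adjusted p = 4.32e-06 against the WT and 1.13e-05 between the brm-1 triple mutant and brm-1, limma). LURP1 held 3.57, 0.886 and 0 in brm-3 and 99.6, 113 and 99.2 in the brm-3 triple mutant, a rise of 5.67 on the log2 scale (SE 1.01, adjusted p = 0.00028). With bcl7a bcl7b added to brm-1, 1 of the 9 rose and 1, PCC1, fell, beside 14.2% and 15.3% of all genes. Their median log2 change was 1.10. AIG1 rose by 3.97 (SE 1.09, adjusted p = 0.00747, limma), a call lost without brm-1 replicate 3 and at a pseudocount of 0.1. In the brm-1 triple mutant, PR2, PR5 and AIG1 thus stood above brm-1 while PCC1, NIMIN1, NIMIN3 and PAD4 stood below it.

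The relatives of PR1 and PR2 and the PR genes of jasmonate and ethylene responses were counted apart. Of 3 tested relatives, 2 were higher and 1 lower in the brm-1 triple mutant than in the WT, beside 26.9% and 18.3% of all genes. PRB1, a basic relative of PR1, held 209, 231 and 135 in the WT and 16.4, 17.9 and 19.7 in the brm-1 triple mutant, and fell by 3.31 on the log2 scale (SE 0.47, adjusted p = 4.98e-06, limma), opposite to PR1. PR4, a chitin-binding protein, held 13874, 12321 and 7477 in the WT, 41304, 49142 and 32211 in brm-1 and 83502, 287659 and 178322 in the brm-1 triple mutant. It rose against the WT by 1.89 in brm-1 (SE 0.378, adjusted p = 0.000261) and by 3.90 in the brm-1 triple mutant (SE 0.378, adjusted p = 2.08e-08). PR3, a basic chitinase, rose by 2.27 with bcl7a bcl7b in brm-1 (SE 0.46, adjusted p = 0.000572). Both jasmonate and ethylene type genes were thus higher in the brm-1 triple mutant than in the WT.

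Markers of other states and plant parts also moved in the brm-1 triple mutant. Of 5 senescence genes, 4 were tested, and in the brm-1 triple mutant 1 was higher and 2 lower than in the WT, beside 26.9% and 18.3% of all genes. Their summed level ran from 2439 to 3054 in the brm-1 triple mutant, 14340 to 18060 in brm-1 and 42570 to 74160 in the WT. SEN1 carried most of the sum and fell by 4.77 on the log2 scale (SE 0.505, adjusted p = 7.85e-08, limma), whereas SAG13, which is also induced in immune responses, rose by 7.26 (SE 1.1, adjusted p = 1.09e-05). The 4 flower and seed markers summed to 288.9 to 6092 in the brm-1 triple mutant and to at most 121 in every other library, and in the WT none of the 4 was above 0 in all libraries. The 4 root markers summed to 59510 to 62800 in the brm-1 triple mutant against 18960 to 26310 in brm-1 and 22590 to 26010 in the WT. These sums were also above the WT in bcl7a bcl7b, at 48350 to 50010, where PR2 was listed at 0, and in the brm-3 triple mutant, at 30330 to 41110. Gene by gene, the 4 root markers did not rise together. Against the WT, 1 was called higher and 1 lower in each triple mutant, and 1 higher and 0 lower in bcl7a bcl7b. All-gene shares were 26.9% and 18.3% (brm-1 triple), 30.8% and 22.8% (brm-3 triple), and 11.9% and 10.2%. Median log2 changes of the 4 were -0.11, -0.38 and -1.02 in that order. The part of these markers in the PR results was not tested.

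The genes whose pattern over the 8 genotype means was most like that of 3 of the 10 were found by the root mean square difference of centred log2 values. For PR1, whose own means had an SD of 2.89, they were HDG8 (0.622), a homeodomain gene, PNP-A (0.733), a secreted natriuretic-peptide-like protein, and AT3G14380 (0.805). For ICS1 (SD 0.943) they were AT5G05300 (0.262), the kinase gene AGC2-1 (0.435) and ATAF2 (0.477), a NAC transcription factor. For NPR1 (SD 0.269) they were SKB1 (0.0916), UBC27 (0.0967) and AT1G14710 (0.108). These are descriptions over 8 means that share libraries and scaling.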

How the data were processed

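RNA-seq reads of 24 seedling libraries had been quantified by the study with Salmon (version 1.5.1 in the submitters' processing notes) against the AtRTD2 transcripts of TAIR10. The authors deposited 1 table of normalized read counts, a signal that is not whole reads, made with DESeq2 size factors (3.10 in the submitters' notes). The study's methods call the inputs of that normalization TPM values, but the library sums (16553172 to 40937084) and the steps between low values in each library are those of scaled fragment counts, so the values were treated as such; how the gene-level inputs were made was not given beyond this. Strand use in counting was not given in the sources used here. The fit was limma 3.58.1 in R 4.3.3 on log2(value + 1), restricted to genes reaching 10 in 3 or more libraries, with 8 genotype means, a trended variance, 23 samples, two-sided tests and Benjamini-Hochberg adjustment over all 21596 genes. A call needed an adjusted p below 0.05 together with a log2 fold change beyond 0.6 in either direction, thresholds taken from the study. The added 1 shrinks fold changes of low genes on this scale. A library listed at 0 in a group with higher values, as for ICS1 in WT replicate 1, can enlarge them. The members and lists were chosen with earlier results of these data known. Genes named from a list are among the 4 called with the smallest adjusted p. Intervals on counts are not given, since the depth behind a value is only estimated (about 0.64 to 2.13 normalized counts per fragment). The 3 libraries of a genotype are biological replicates by the study's methods. The script was tested on simulated data. Alternatives were 2 other pseudocounts, 2 other filters, 2 other scalings, a fit to the compared groups only, all 24 libraries, a replicate block and leaving out each library. Sequences and shared 31-base words came from RefSeq's TAIR10.1, in which 10 of 10 loci were matched (Python 3.11.15; figures with matplotlib 3.10.9). The window upstream of 1 gene is not reported here.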

Additional observations from a re-analysis of the deposited data

Results flagged for a closer look

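In 3 of the 10 genes the effect of bcl7a bcl7b in brm-1 differed from its effect in the WT by the interaction term of the limma fit. So did 31.2% of all tested genes (14.7% higher, 16.5% lower), so this count was near the share of all genes. The term crosses the 2 sets of libraries that differ in their sums. Its median over all tested genes was -0.25, and -1.08 with the same total. For PAD4 the difference was -2.46 on the log2 scale (adjusted p = 0.00146), and it stayed called in all 21 alternatives (adjusted p up to 0.0142). For WRKY70 it was -2.75 (adjusted p = 0.0324), and it stayed called in 14 of 21 alternatives (adjusted p 0.00432 to 0.101). For PR2 it was 7.84 (adjusted p = 0.00644), with bcl7a bcl7b listed at 0 in every library, and it stayed called in 20 of 21 (adjusted p up to 0.0708, at a pseudocount of 0.1).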

How the results depend on the processing

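Of the 10 genes, the number called against the WT in bcl7b, 1, was 0 at a pseudocount of 0.1 or 5, with no filter, with quantile normalization and in a fit to the compared groups only. In bcl7a bcl7b, 1 became 3 with libraries scaled to the same total, 2 with all 24 libraries and 0 in the fit to the compared groups only. In brm-3, 1 became 2 at a pseudocount of 5, with a minimum mean of 50 or with all 24 libraries, 3 with quantile normalization and 4 with the same total. In brm-3 bcl7a bcl7b, 4 became 8 with the same total and 0 in the fit to the compared groups. Against brm-3, 1 became 2 with the same total, and against bcl7a bcl7b 2 became 1 in the fit to the compared groups. The interaction with brm-3, 0, was 1 with quantile normalization or all 24 libraries and 2 with the same total. Of the 69 listed genes, 16 called in bcl7a bcl7b became 9 with quantile normalization, 33 with the same total and 0 in the fit to the compared groups, which also gave 15 in place of 25 in brm-3 and 25 in place of 40 in brm-3 bcl7a bcl7b. A minimum mean of 50, which tests fewer genes, gave 22 in place of 34 in brm-1 bcl7a bcl7b. Counts over all 21596 tested genes moved with the same total too. Against the WT it called 10850 higher and 364 lower in bcl7a bcl7b and 10909 and 896 in brm-3. In brm-3 bcl7a bcl7b it called 12044 and 1991, and for the interaction with brm-3 480 and 6845. Quantile normalization called 1979 and 1806 in bcl7a bcl7b and 4030 and 3846 in brm-3.

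Leaving out each library gave 0 to 1 genes called against the WT in bcl7b, 1 to 2 in brm-3, 3 to 4 in brm-1, 2 to 5 in brm-3 bcl7a bcl7b and 5 to 8 in brm-1 bcl7a bcl7b. It gave 0 to 2 against brm-3, 3 to 4 against brm-1, 1 to 3 and 2 to 3 against bcl7a bcl7b, 2 to 3 between the BRM alleles, and 0 to 2 and 2 to 4 for the interactions. The listed genes called in bcl7a bcl7b ranged from 8 to 16. PAD4 in brm-1 bcl7a bcl7b against the WT turned from -0.90 to 0.01 with the same total. The cause was not tested.

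The replicate numbers did not pair the mutant libraries with those of the WT: 0 of 21 correlations of same-numbered libraries with the WT were over 0.1 (-0.0694 to 0.055). Pairing among the mutants was not examined. With a replicate block, the genes called in brm-3 were 3 in place of 1, with CBP60g and PAD4 added to WRKY70, and no other count of the 10 genes moved by over 1.5 times. Depth limits what can be said of PR1, PR2 and SARD1 in the groups at or near 0.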
